A study of Rattus norvegicus with 48 samples.

Results

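The genes described here are 10 growth factor and growth response genes of the regenerating liver: Hgf, Hbegf, Areg, Igf1 and Tgfb1, which code for secreted signals, the receptor genes Met and Egfr, and Igfbp1, Myc and Ccnd1, which respond to such signals. They were chosen by gene symbol, with earlier results of these data known. They are 10 of the 14506 genes to which a probe set with a single symbol could be assigned. Each of the 10 was measured by 1 probe set on the array. Expression was measured in liver biopsies on Affymetrix arrays, 1 array per rat, and every value below is a log2 value of a probe set, so a difference of 1 is a 2-fold difference in signal (the log2 values were averaged within groups).

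The adult liver regrows after loss or damage. Cytokines first prime the hepatocytes, which then switch on early genes such as Myc and Igfbp1. HGF, acting on its receptor MET, and ligands of the EGF receptor drive them towards division, for which cyclin D1 (Ccnd1) is the gate, and TGF-beta ends the response. HGF and TGF-beta come mainly from non-parenchymal cells, while IGF1 and its binding protein IGFBP1 are secreted by hepatocytes.

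All 48 animals were male Wistar rats under fentanyl/fluanisone and midazolam anaesthesia with a midline laparotomy, and biopsies came from the right lobe. The IPC+IPO group (10 rats) had preconditioning and postconditioning around the main insult. The IPO group (10 rats) had postconditioning alone: on release of the clamp, flow and ischemia alternated in 3 cycles of 30 sec each. The IPC group (10 rats) had preconditioning alone, which was 10 min of ischemia and 10 min of flow before the main insult. The IRI group (10 rats) had the main insult alone, 30 min of ischemia of the whole liver and 30 min of reperfusion, and the other 3 ischemic groups had this insult too. The Sham group (8 rats) had no ischemia; how long these rats stayed under anaesthesia is not given in the labels. Preconditioned livers differ from the others by the added ischemia and by the added time, and these cannot be told apart. Liver was sampled at a single time, and a biopsy holds all cell types of the liver, so fewer cells of a type and less RNA per cell cannot be told apart.

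Arrays differed in the spread of their values (the standard deviation over the 14506 genes of an array), which ran from 1.5 to 1.97. Mean spread was 1.86 in IPC+IPO, 1.91 in IPO, 1.85 in IPC, 1.77 in IRI and 1.72 in Sham, and 6 of the 14 arrays of lowest spread were Sham arrays. Differences with spread as a covariate are therefore given beside the calls of the 10 genes and, for their pathways, after the values of a list. All 12 hepatocyte markers examined lay above the array median on every array, as the label liver requires. Of 12 neutrophil markers, none lay above the median on all arrays and 6 lay below it on all.

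Of the 10 genes, Met, Egfr, Ccnd1, Tgfb1, Igfbp1 and Igf1 lay above the array median on all 48 arrays. Hgf did so on 44, Myc on 39 and Hbegf on 9. Areg lay below the median on every array, so its differences come from the dim end of the scale.

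**Figure D1:**
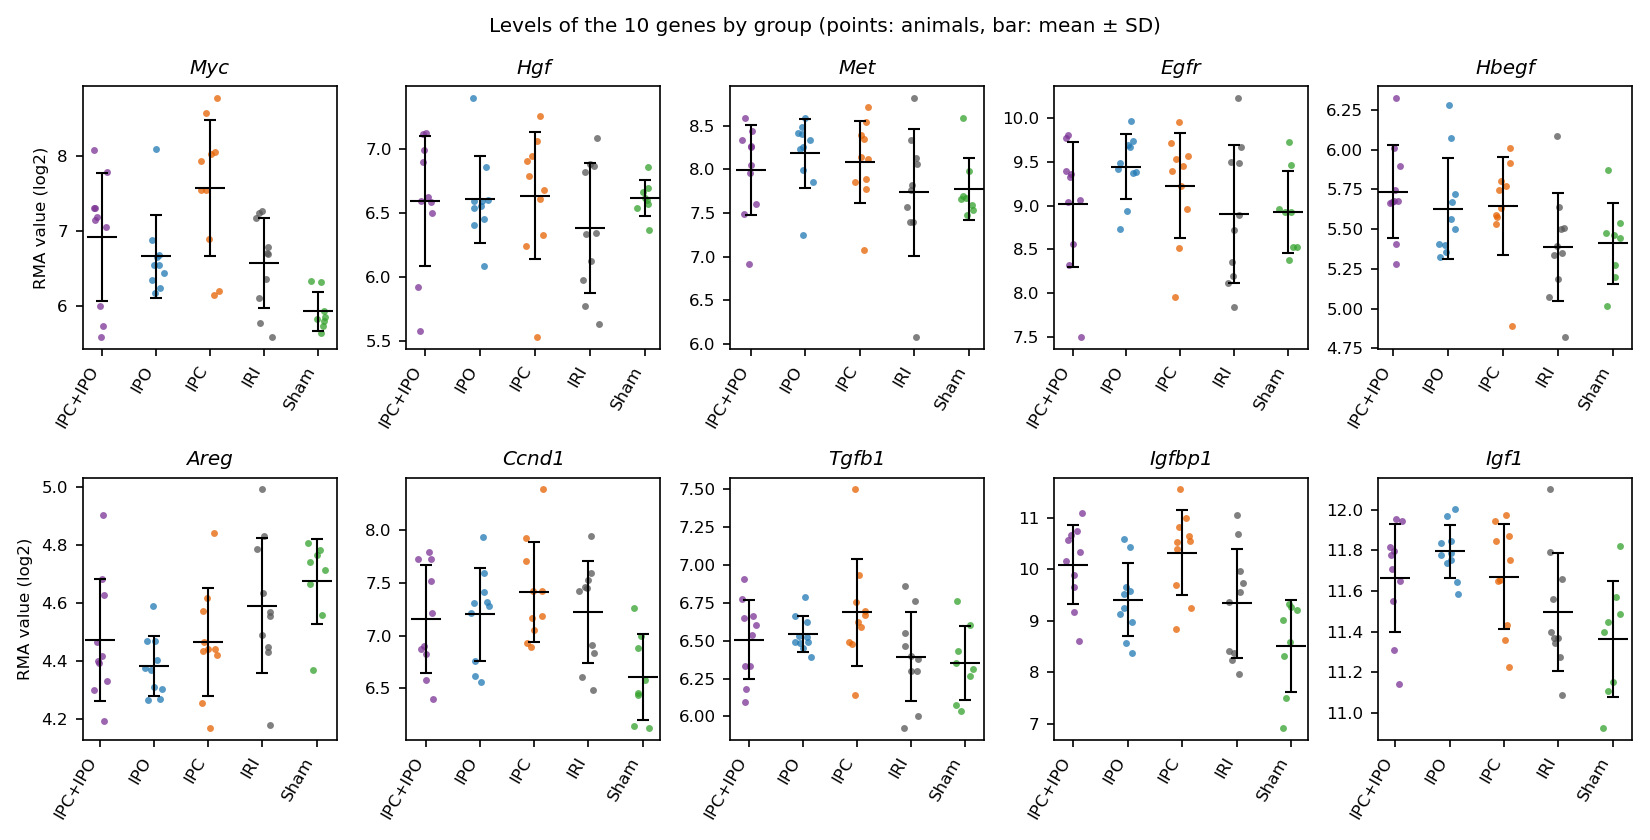
Log2 RMA values (vertical axes) of the 10 genes in every animal, with groups from left to right IPC+IPO, IPO, IPC, IRI and Sham; points are animals, bars are mean ± SD. Sham values of Myc sit between 5.63 and 6.33, below 8 of the 10 IPC animals. The groups overlap for Hgf, Met and Egfr. Sham values of Hgf, 6.37 to 6.86, lie inside the wider range of every ischemic group.

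Differences from Sham are described first. Igfbp1 was 3.49-fold higher in IPC and 2.97-fold higher in IPC+IPO, and Myc was 3.13-fold and Ccnd1 1.74-fold higher in IPC. In IPO livers Ccnd1 and Igf1 were higher than in Sham, and Areg was lower. Hgf, Met, Egfr, Hbegf and Tgfb1 passed in no comparison with Sham. Calls are from limma across all 14506 genes in 1 fit of the 5 groups, at a Benjamini-Hochberg adjusted p under 0.05. The comparisons with Sham share the same 8 Sham animals, so their values are not independent.

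In numbers, 3 of the 10 genes were called in IPC against Sham (Myc, Ccnd1 and Igfbp1, all higher), where 6.58% of all genes were called. In IPO against Sham 3 were called, where 23.2% of all genes were, a share close to that of the 10 genes. Igfbp1 alone was called in IPC+IPO against Sham, where 3.62% of all genes were. None was called in IRI against Sham, where 0.241% of all genes were; at an unadjusted p under 0.05 limma had 3 of the 10 (Myc, Ccnd1 and Igfbp1), against 11.5% of all genes. With array spread as a covariate, Myc and Igfbp1 were called in IPC against Sham, where 1.9% of all genes were. In that fit 0 of the 10 were called in IPC+IPO (0.234% of all genes), IPO (0%) and IRI (5.89%) against Sham.

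Igfbp1 codes for a secreted protein that binds IGFs; it is made by hepatocytes, is repressed by insulin and is an early gene of the regenerating rat liver. As the gene with the largest differences from Sham, its promoter is shown. The 250 bases before its start in the RefSeq annotation of GRCr8 are at chr14:86261027-86261276 on the plus strand, and capitals mark matches to the motif CAAAANA, the core of the insulin response element, searched on both strands.
Igfbp1 promoter: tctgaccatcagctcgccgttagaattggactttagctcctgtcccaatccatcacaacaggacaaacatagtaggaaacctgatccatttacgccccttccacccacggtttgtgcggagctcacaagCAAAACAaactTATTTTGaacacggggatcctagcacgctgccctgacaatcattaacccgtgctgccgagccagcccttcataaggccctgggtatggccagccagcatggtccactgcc
The matches begin 121 bases before the start on the plus strand and 110 bases before it on the minus strand, and they do not overlap. At least 1 match to this motif stands in 17.4% of 33469 rat promoters of the same length. GTTAAT, a part of the binding site of the hepatocyte factor HNF1, has 1 match, 69 bases before the start on the minus strand, and is found in 6.45% of those promoters. There was no match to the letters of the TATA box TATAAA, the hypoxia response core ACGTG, the cAMP response element TGACGTCA, the AP-1 site TGACTCA or the E-box CACGTG, which stand in 12.9%, 16.6%, 1.59%, 4.05% and 5.59% of the promoters. These matches describe the letters of the window and were not tested as binding sites.

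Igfbp1 (probe set 10774141) had a lowest value of 8.83, a median of 10.53 and a highest of 11.55 in IPC livers, against 6.91, 8.80 and 9.32 in Sham livers. In IPC+IPO livers the lowest, median and highest were 8.60, 10.25 and 11.10, in IPO livers 8.38, 9.39 and 10.59, and in IRI livers 7.97, 9.46 and 11.05. In IPC and in IPC+IPO, 8 of 10 animals lay above every Sham animal, against 5 of 10 in IPO and 6 of 10 in IRI. The difference from Sham was 1.80 ± 0.39 (SE) in IPC (limma, adjusted p = 0.00449) and 1.57 ± 0.39 in IPC+IPO (adjusted p = 0.022). IPO and IRI differed from Sham by 0.89 ± 0.39 (limma, adjusted p = 0.0786) and 0.82 ± 0.39 (adjusted p = 0.407), neither past the threshold. With spread as a covariate the difference was 1.57 in IPC (adjusted p = 0.0263) and 1.32 in IPC+IPO (adjusted p = 0.109). The call in IPC+IPO was also lost without any of Sham animals 41, 42, 46 or 47, with differences between 1.34 and 1.58 and adjusted p between 0.0536 and 0.079, and in a fit of these groups alone (adjusted p = 0.0902). Sham animals 41 and 47 held the lowest Igfbp1 values of the study, 6.91 and 7.51.

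Myc, a transcription factor that drives ribosome production and cell growth, varied widely between animals of the same ischemic group. Its probe set (10896814) had a lowest value of 6.14, a median of 7.74 and a highest of 8.78 in IPC livers, against 5.63, 5.84 and 6.33 in Sham livers. The Sham animals were closer together (SD 0.26) than those of IPC (SD 0.91). In IPC+IPO livers the lowest, median and highest were 5.58, 7.17 and 8.08, in IPO livers 6.17, 6.55 and 8.10, and in IRI livers 5.59, 6.70 and 7.27. Of the 10 animals in each group, 8 in IPC, 7 in IPC+IPO, 8 in IPO and 7 in IRI lay above every Sham animal. The difference from Sham was 1.64 ± 0.31 (SE) in IPC (limma, adjusted p = 0.00171), and 1.36 with spread as a covariate (adjusted p = 0.012). It did not pass in IPC+IPO, at 0.99 ± 0.31 (adjusted p = 0.0559), in IPO, at 0.73 ± 0.31 (adjusted p = 0.0737), or in IRI, at 0.64 ± 0.31 (limma, adjusted p = 0.418). In IPC against Sham, the calls of Myc and Igfbp1 were kept without each of the 48 arrays in turn, at 1.51 to 1.80 for Myc and 1.58 to 1.97 for Igfbp1. Without the 14 arrays of lowest spread, which leaves 2 Sham arrays, they stood at 1.40 and 1.37 and were not called (adjusted p = 0.342 and 0.406).

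Ccnd1, the cyclin that carries hepatocytes through the G1 phase, had a higher mean in all 4 ischemic groups than in Sham and was called in 2 of them. Its lowest, median and highest values were 6.89, 7.31 and 8.38 in IPC livers, against 6.12, 6.52 and 7.26 in Sham livers. The values were 6.40, 7.06 and 7.79 in IPC+IPO, 6.56, 7.29 and 7.93 in IPO, and 6.48, 7.43 and 7.94 in IRI. Every ischemic group overlapped with Sham, and 4 to 6 animals of each lay above every Sham animal. The differences from Sham were 0.80 ± 0.21 (SE) in IPC (limma, adjusted p = 0.0192), 0.59 ± 0.21 in IPO (adjusted p = 0.0387), 0.55 ± 0.21 in IPC+IPO (adjusted p = 0.112) and 0.61 ± 0.21 in IRI (adjusted p = 0.191). The larger adjusted p of IRI stands beside a difference of the same size as that of IPO, since the adjustment depends on how many genes passed in a comparison. With spread as a covariate Ccnd1 differed by 0.57 in IPC (limma, adjusted p = 0.126) and 0.25 in IPO (adjusted p = 0.737). The call in IPC was lost without Sham animal 41 or 42, at 0.73 each (limma, adjusted p = 0.0577 and 0.0561), and that in IPO without any of 11 arrays, at 0.51 to 0.59.

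**Figure D2:**
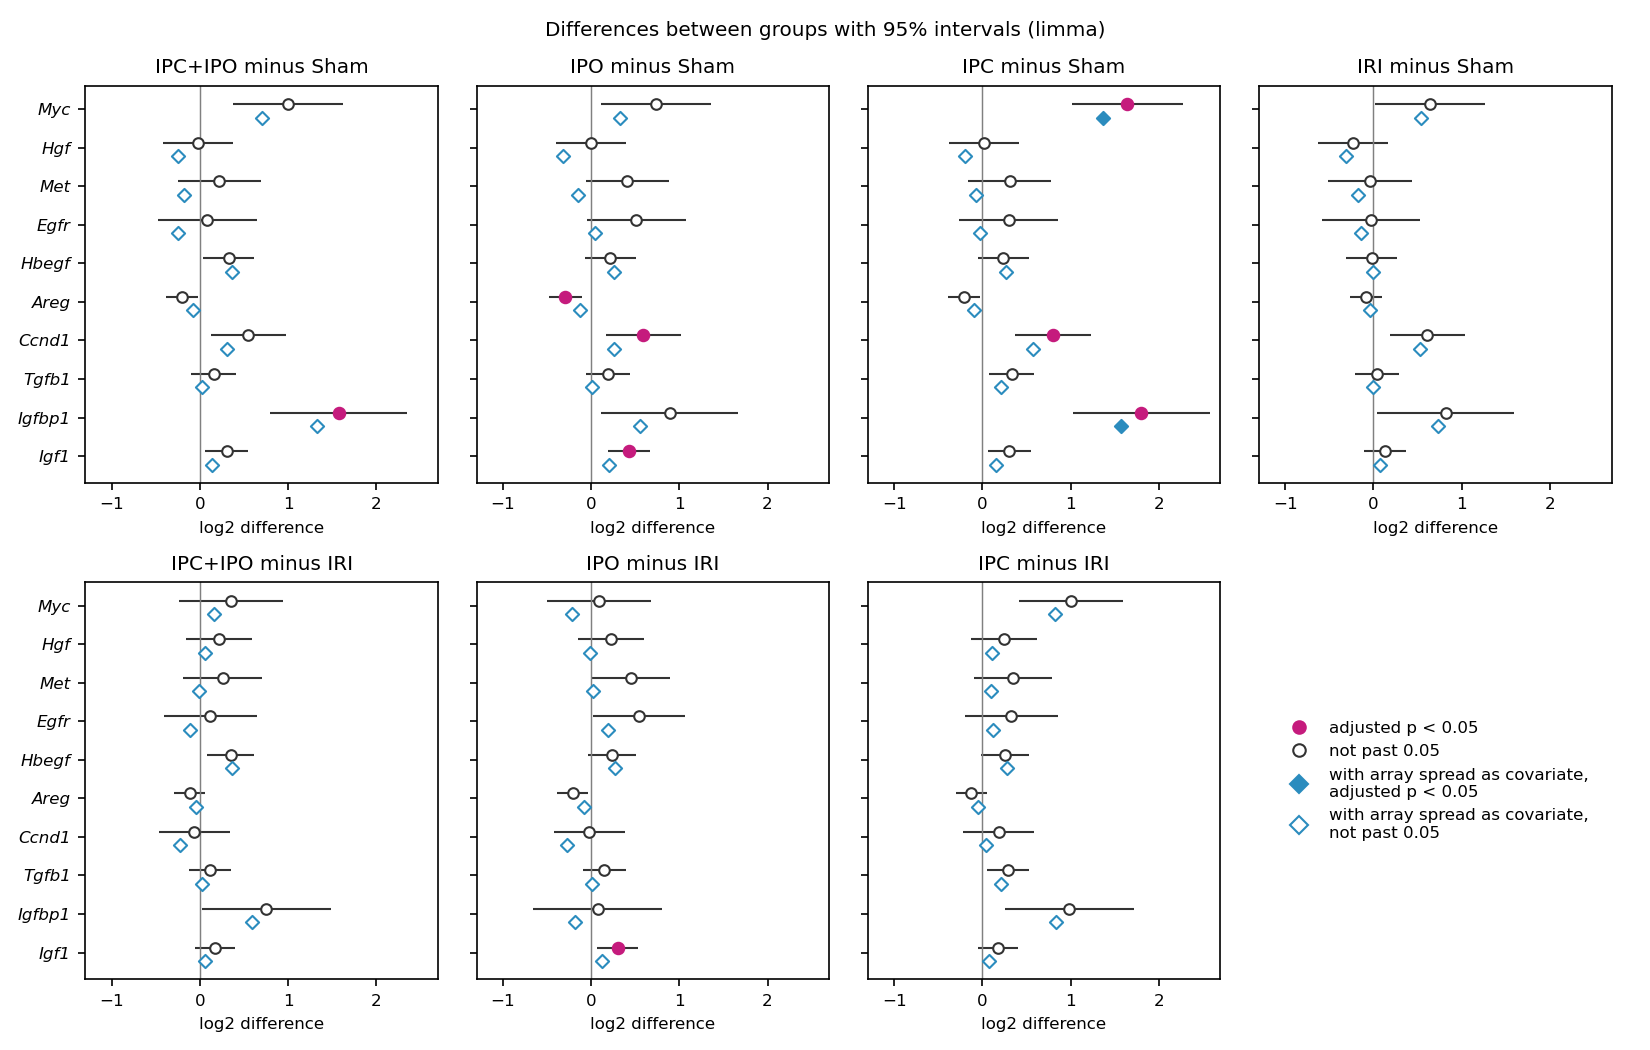
Log2 differences between groups for the 10 genes (horizontal axes), with each of the 3 conditioned groups and IRI minus Sham in the upper row and the conditioned groups minus IRI in the lower row. Circles are limma estimates with 95% intervals, diamonds the estimates with array spread as a covariate, and filled symbols have an adjusted p under 0.05. Myc and Igfbp1 in IPC minus Sham stand farthest from 0, at 1.64 and 1.80, and keep a filled diamond.

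Igf1, the growth factor that the liver secretes under growth hormone, had its highest mean and median in IPO, while the highest single value was that of an IRI animal. Its lowest, median and highest were 11.58, 11.78 and 12.00 in IPO livers, against 10.92, 11.42 and 11.82 in Sham livers. The medians were 11.74 in IPC+IPO, 11.70 in IPC and 11.38 in IRI. In IPO livers 4 of 10 animals lay above every Sham animal, and the animals of IPO were closer together (SD 0.13) than those of Sham (SD 0.29). The difference between IPO and Sham was 0.43 ± 0.12 (SE), a 1.35-fold rise (limma, adjusted p = 0.0122), and 0.20 with spread as a covariate (adjusted p = 0.559). IPC, IPC+IPO and IRI differed from Sham by 0.31, 0.30 and 0.13, with SEs of 0.12, and none passed (limma, adjusted p = 0.106, 0.12 and 0.74). Against IRI, whose lowest, median and highest were 11.09, 11.38 and 12.10, Igf1 in IPO differed by 0.30 ± 0.11 (limma, adjusted p = 0.0486), although no IPO animal lay above the highest IRI animal. That call was lost without any of 28 of the 48 arrays, among them 7 of the 10 IRI and 8 of the 10 IPO arrays, with differences between 0.25 and 0.31. It was lost too with spread as a covariate (0.13, adjusted p = 0.722).

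Areg, amphiregulin, and Hbegf, heparin-binding EGF-like growth factor, are membrane-anchored ligands that activate the EGF receptor once shed. Areg had a lowest value of 4.26, a median of 4.37 and a highest of 4.59 in IPO livers, against 4.37, 4.73 and 4.81 in Sham livers. The medians were 4.41 in IPC+IPO, 4.44 in IPC and 4.56 in IRI, so Sham was highest. In IPO 4 of 10 animals lay below every Sham animal, and the difference was -0.29 ± 0.09 (SE; limma, adjusted p = 0.0219), or -0.13 with spread as a covariate (adjusted p = 0.637). Without Sham animal 41, which had the highest Sham value, the difference was -0.27 and was not called (limma, adjusted p = 0.0501). IPC and IPC+IPO differed from Sham by -0.21 and -0.20 with SEs of 0.09 and did not pass (limma, adjusted p = 0.153 and 0.169).

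Hbegf lay between 5.28 and 6.33 in IPC+IPO livers (median 5.68), against 5.02 and 5.87 in Sham livers (median 5.46). In IPO it lay between 5.33 and 6.28 (median 5.53), in IPC between 4.89 and 6.01 (median 5.69), and in IRI between 4.82 and 6.09 (median 5.37). All groups overlapped. IPC+IPO differed from Sham by 0.32 ± 0.14 (SE), with a 95% interval of 0.04 to 0.61 (limma, adjusted p = 0.157). Against IRI, IPC+IPO differed by 0.35 ± 0.13, with an interval of 0.07 to 0.62 (limma, adjusted p = 0.149). Hbegf was the member whose value was least tied to array spread, and its difference from IRI was 0.37 with spread as a covariate.

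Hgf, the ligand of MET and a mitogen of hepatocytes, averaged 6.59 ± 0.50 (SD) in IPC+IPO, 6.61 ± 0.34 in IPO, 6.63 ± 0.50 in IPC, 6.38 ± 0.51 in IRI and 6.61 ± 0.14 in Sham. The Sham animals lay within 6.37 to 6.86, inside the range of every ischemic group. IPC, IPO and IPC+IPO differed from Sham by 0.02, -0.01 and -0.02, with 95% intervals that reached from -0.42 to 0.42. IRI differed from Sham by -0.23, with an interval of -0.63 to 0.17, and 6 of 10 IRI animals lay below every Sham animal while 3 lay above every Sham animal. The ischemic livers thus spread to either side of Sham in Hgf.

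Met and Egfr, the receptors for HGF and for the EGF family on hepatocytes, had their highest means in IPO and overlapped between all groups. Met averaged 7.99 ± 0.52 (SD) in IPC+IPO, 8.18 ± 0.40 in IPO, 8.09 ± 0.47 in IPC, 7.74 ± 0.73 in IRI and 7.78 ± 0.36 in Sham. Egfr averaged 9.01 ± 0.71 in IPC+IPO, 9.44 ± 0.37 in IPO, 9.23 ± 0.60 in IPC, 8.90 ± 0.79 in IRI and 8.93 ± 0.47 in Sham. No IPO animal lay above the highest IRI animal in either gene. In IPO against IRI, Met differed by 0.45 ± 0.22 (SE; limma, adjusted p = 0.111) and Egfr by 0.54 ± 0.26 (adjusted p = 0.102). With spread as a covariate these differences were 0.02 and 0.19.

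Tgfb1, which codes for the cytokine that stops hepatocyte division and activates stellate cells, averaged 6.51 ± 0.26 (SD) in IPC+IPO, 6.54 ± 0.12 in IPO, 6.69 ± 0.35 in IPC, 6.39 ± 0.29 in IRI and 6.35 ± 0.24 in Sham. It was highest in IPC, where animal 11 had 7.50, above all other arrays. IPC differed from Sham by 0.33 ± 0.13 (SE), with a 95% interval of 0.08 to 0.59 (limma, adjusted p = 0.0973). IPC differed from IRI by 0.29 ± 0.12, with an interval of 0.05 to 0.53 (limma, adjusted p = 0.2).

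The comparisons with IRI asked what conditioning changed in livers that had the same main insult, and they share the 10 IRI animals. Among the 10 genes limma called none in IPC against IRI, where 0.0276% of all genes were called, and none in IPC+IPO against IRI, where 0% were. In IPO against IRI it called Igf1 alone, where 22.8% of all genes were called, so the members passed no more often than genes in general. At an unadjusted p under 0.05, limma had Myc, Tgfb1 and Igfbp1 in IPC against IRI (3 of 10, with 19.3% of all genes), and Hbegf and Igfbp1 in IPC+IPO against IRI (2 of 10, with 21.5%). In IPO it had Met, Egfr, Areg and Igf1 (4 of 10, with 44.5%). With array spread as a covariate, limma called 0 of the 10 in IPC+IPO (0.062% of all genes), IPO (0.0138%) and IPC (0%) against IRI.

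Myc in IPC differed from IRI by 1.0 ± 0.29 (SE), or 2.0-fold, with a 95% interval of 0.41 to 1.59 (limma, adjusted p = 0.154). In IPC 7 of 10 animals lay above the highest IRI animal at 7.27, and 3 lay among the IRI animals. With spread as a covariate the difference was 0.82 (limma, adjusted p = 0.296). Without IRI animal 1, which had the highest Myc value of its group, it was 1.08 and passed (limma, adjusted p = 0.0491), the only array whose removal gave a call of a member here. Igfbp1 in IPC differed from IRI by 0.99 ± 0.36, with an interval of 0.25 to 1.72 (limma, adjusted p = 0.179), and 1 IPC animal lay above every IRI animal. IPC+IPO differed from IRI by 0.35 ± 0.29 in Myc (interval -0.24 to 0.94) and by 0.75 ± 0.36 in Igfbp1 (interval 0.02 to 1.48; limma, adjusted p = 0.458 and 0.221). In IPO the differences from IRI were 0.09 ± 0.29 and 0.07 ± 0.36, with intervals of -0.50 to 0.68 and -0.66 to 0.81.

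Conditioned groups were also set against each other, where no member and 0% of all genes passed. IPO differed from IPC in Myc by -0.91 ± 0.29 (SE; 95% interval -1.5 to -0.32; limma, unadjusted p = 0.00314, adjusted p = 0.835). The difference in Igfbp1 was -0.91 ± 0.36 (interval -1.64 to -0.18; limma, unadjusted p = 0.0154, adjusted p = 0.835). These were the 2 members at an unadjusted p under 0.05 in IPO against IPC, with 4.06% of all genes. Between IPC+IPO and IPC, Myc differed by -0.65 ± 0.29 (interval -1.24 to -0.06), and it was the 1 member at an unadjusted p under 0.05 (1.62% of all genes). Between IPC+IPO and IPO no member reached that level (3.32% of all genes). For the interaction of the interventions, the departure of IPC+IPO from the sum of the IPC and IPO differences, 0% of all genes passed, and Egfr alone of the members was at an unadjusted p under 0.05 (20.3% of all genes). The interaction was -0.76 ± 0.37 for Egfr (limma, adjusted p = 0.241) and -0.74 ± 0.41 for Myc (adjusted p = 0.28). An interaction below 0 was found for 9 of the 10 genes, Areg being above it. The share of all genes below 0 was not counted. With spread as a covariate the interaction was -0.42 for Egfr, -0.45 for Myc and 0.01 for Ccnd1. The median of the 10 genes was -0.31, against 0.03 over all genes, and with that covariate -0.14, against 0.02.

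In the order of group means, no pair of neighbours passed for any of the 10 genes. Sham had the lowest mean of Myc, Ccnd1, Tgfb1, Igfbp1 and Igf1, and IRI stood next to it in each except Ccnd1, where IPC+IPO did. IPC had the highest mean of Myc, Ccnd1, Igfbp1, Tgfb1 and Hgf. IPO had the highest mean of Met, Egfr and Igf1 and the lowest of Areg. IPC+IPO had the highest mean of Hbegf.

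Several of the genes followed the spread of the arrays. With group means removed, over the 48 arrays Pearson r with spread was 0.659 for Met (Spearman rho 0.625), 0.549 for Igf1 (rho 0.579) and -0.540 for Areg (rho -0.491), with permutation p of 2e-05, 0.00032 and 0.00035 and adjusted p over the 10 genes of 0.0002, 0.00117 and 0.00117. Ccnd1 had r 0.443 and Myc 0.360 (rho 0.434 and 0.394; permutation p = 0.00253 and 0.0151, adjusted p = 0.0049 and 0.0189). Igfbp1 had r 0.242 (rho 0.304; permutation p = 0.119, adjusted p = 0.132) and Hbegf -0.091 (rho -0.128; permutation p = 0.548, adjusted p = 0.548). With the 2 arrays of most extreme spread left out, r was 0.521 for Met, 0.608 for Igf1, -0.413 for Areg, 0.388 for Ccnd1 and 0.412 for Myc. In all, 8 of the 10 genes passed at an adjusted p under 0.05, Igfbp1 and Hbegf being the others. The same 8 had an r of at least 0.360 in size, as had 79.7% of all 14506 genes, so following the spread is not particular to them. The part of array spread in the differences between groups was not tested beyond the fits with spread as a covariate.

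**Figure D3:**
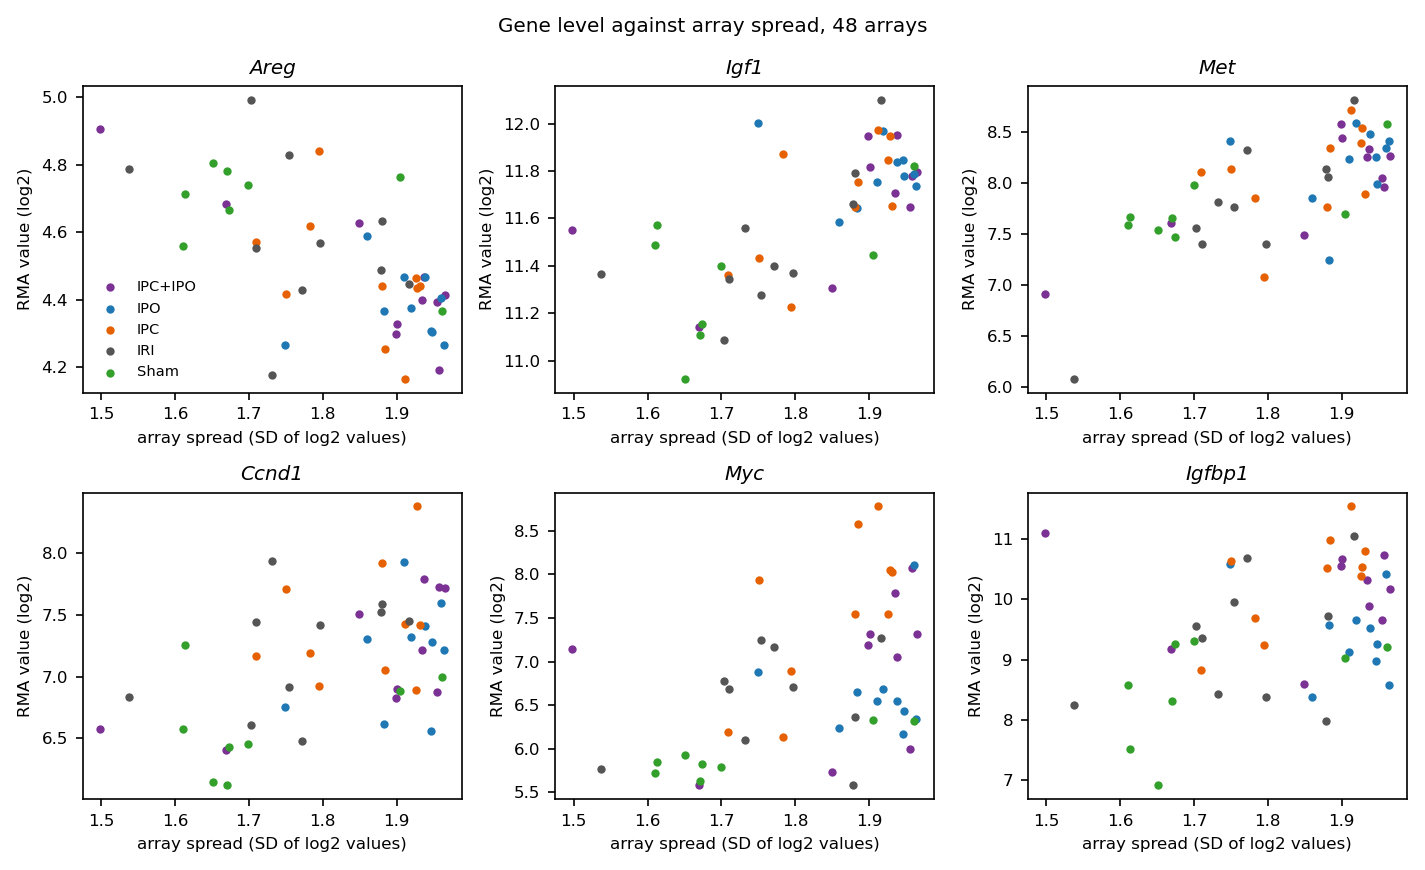
Log2 RMA values of Areg, Igf1, Met, Ccnd1, Myc and Igfbp1 (vertical axes) against the spread of each array (horizontal axes), 1 point per animal, coloured by group. Met and Igf1 climb and Areg declines from the arrays of low spread to those of high spread, while Igfbp1 values range widely at every spread.

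Myc and Igfbp1 moved together from animal to animal. With group means removed, Pearson r was 0.752 over the 48 arrays (Spearman rho 0.768), and 0.735 without the 2 arrays farthest from the median. The permutation p was 1e-05, the smallest that these permutations can give, and 7.5e-05 adjusted over the 45 pairs of members. With array spread removed as well, r was 0.735. Met and Egfr formed the pair with the highest r, 0.793 (rho 0.725; permutation p = 1e-05, adjusted p = 7.5e-05; 0.752 without the 2 farthest arrays), and 0.732 with spread removed. Areg had an r below 0 with every other member except Hbegf, among them Igf1 at -0.614 and Tgfb1 at -0.53. With Egfr it was -0.666 (rho -0.584, permutation p = 1e-05, adjusted p = 7.5e-05), -0.594 without the 2 farthest arrays and -0.557 with spread removed. Areg lay below the median on all 48 arrays, and its r with array spread was -0.540. Myc and Hbegf had an r of 0.444 (rho 0.387; permutation p = 0.0027, adjusted p = 0.00675; 0.447 without the 2 farthest arrays), and 0.513 with spread removed. In all, 28 of the 45 pairs passed at an adjusted p under 0.05. These had an r of at least 0.349 in size, as had 45.9% of all pairs of the 14506 genes. Ccnd1, called beside Igfbp1 in IPC against Sham, had an r of -0.04 with it.

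**Figure D4:**
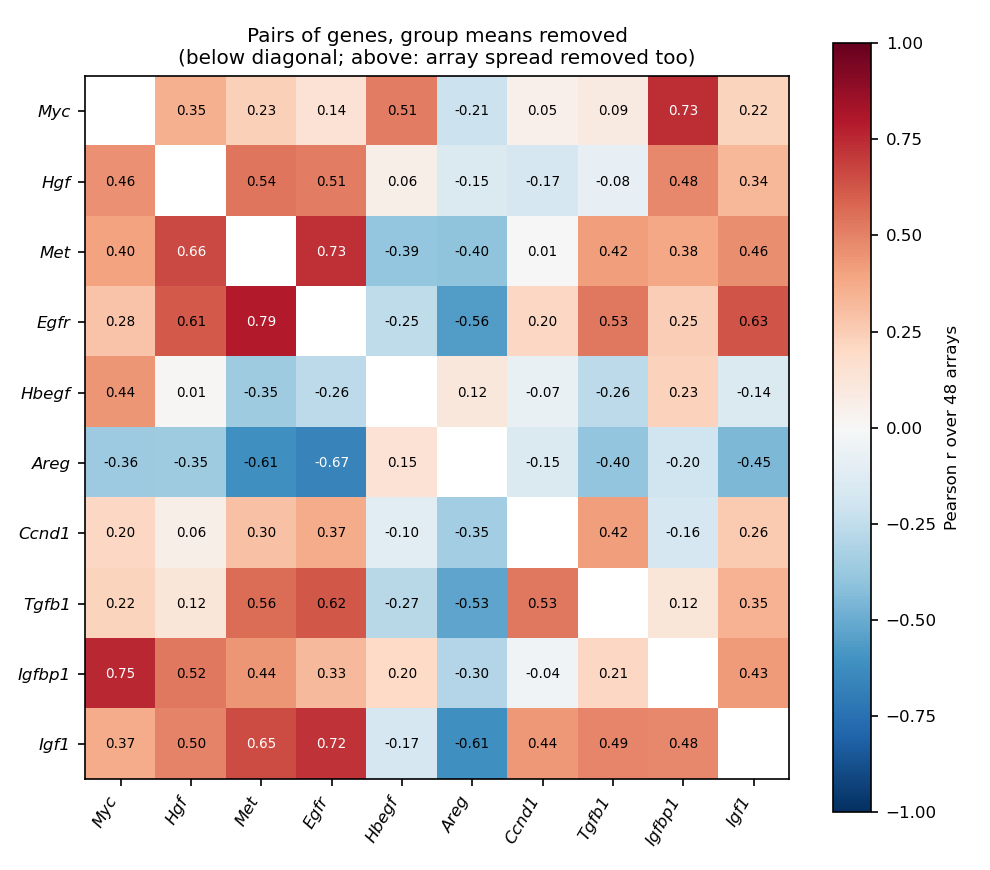
Pearson r over the 48 arrays for the 45 pairs of the 10 genes, with group means removed (below the diagonal) and with array spread removed too (above it); red is positive, blue negative. Myc with Igfbp1 stays at 0.735 in the upper part, and the rows and columns of Hbegf and Areg together hold most of the negative values.

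Over the 48 arrays, the genes whose values ran closest to those of Myc were Gadd45a, a growth arrest and DNA damage gene, Klf6, a Krüppel-like transcription factor, and Enc1, with Pearson r of 0.868, 0.864 and 0.843. Those closest to Igfbp1 were Gadd45a (0.851), the pseudokinase gene Trib1 (0.843) and Myc itself (0.828). With group means removed, the closest to Igfbp1 was Zfand5 (0.787), followed by Gadd45a (0.767) and Trib1 (0.756). Hbegf was closest to Ier5 (0.668), Gdf15 (0.605) and Fgf21 (0.577). Ccnd1 was closest to Bckdk (0.736) and to Fads2 (0.719) and Fdft1 (0.716), enzymes of fatty acid desaturation and of sterol synthesis. Met, Egfr and Igf1 were closest to Atrn (0.942), Fn1 (0.904) and Cyp4f1 (0.898), Hgf to Slc27a2 (0.834), Tgfb1 to Ptbp1 (0.843) and Areg to Fbxo36 (0.81). These values share arrays and their spread, and they are descriptions picked as the highest over all genes.

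Around the 10 genes, 133 other genes of their pathways were measured, in 8 lists. In IPC against Sham, 13 of the 133 rose and 0 fell (9.77% called, against 6.58% of all genes). In IRI against Sham 0 rose and 1 fell (0.752%, against 0.241%), the PDGF receptor gene Pdgfra. In IPO against Sham 28 rose and 6 fell (25.6%, against 23.2%), and in IPC+IPO against Sham 8 rose and 1 fell (6.77%, against 3.62%). Against IRI, 1 rose in IPC (0.752%, against 0.0276% of all genes), which was Plat, and none passed in IPC+IPO. Plat in IPC differed from IRI by 0.56 ± 0.11 (limma estimate ± SE, adjusted p = 0.0472). With spread as a covariate that difference was 0.52 and was not called (limma, adjusted p = 0.0866). Plat averaged 6.49 in IPC, 5.93 in IRI and 6.32 in Sham. In IPO against IRI 18 rose and 6 fell (18%, against 22.8% of all genes). With array spread as a covariate, 7 of the 133 were called in IPC against Sham, none in IPO or IPC+IPO and 9 in IRI against Sham (1.9%, 0%, 0.234% and 5.89% of all genes). Spint2, Socs3 and Pdgfra were called so in both IPC and IRI.

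On the cytokine side, 3 of 15 genes of the priming phase rose in each of the conditioned groups against Sham, the same ones each time. Of all genes, 3.62% were called in IPC+IPO, 23.2% in IPO and 6.58% in IPC. In IRI none of the 15 was called against Sham. Socs3 differed there by 0.68 ± 0.20 (SE), or by 0.67 with spread as a covariate, where it was called. Nfkbia, the inhibitor of NF-kB that NF-kB itself induces, differed from Sham by 0.99 ± 0.27 (SE) in IPC+IPO, 0.85 ± 0.27 in IPO and 1.27 ± 0.27 in IPC. Socs3, the feedback inhibitor of IL-6 signalling, differed by 0.89 ± 0.20, 0.78 ± 0.20 and 0.91 ± 0.20 in the same order, and the TNF receptor gene Tnfrsf1a by 0.76 ± 0.21, 0.76 ± 0.21 and 0.68 ± 0.21. In the fit with the spread covariate Nfkbia differed by 0.71, 0.47 and 1.002, Socs3 by 0.84, 0.71 and 0.86, and Tnfrsf1a by 0.31, 0.14 and 0.26; Nfkbia and Socs3 were then called, of the conditioned groups, in IPC alone. The list's median difference from Sham was 0.09 in IPC+IPO, 0.17 in IPO and 0.14 in IPC, against medians of 0.01, 0.00 and 0.01 over all genes. With spread as a covariate the list's medians were 0.09, 0.03 and 0.05, against 0.02, 0.02 and 0.03 over all genes.

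Along the HGF and MET axis, 1 of 12 genes was called in IPC+IPO against Sham, 4 in IPO (1 of them lower) and 2 in IPC. Hpn, hepsin, a protease that activates HGF, rose by 0.49 ± 0.14 (SE) in IPO and in IPC. Spint2, which inhibits such proteases, rose by 0.61 ± 0.18 in IPC+IPO, 0.68 ± 0.18 in IPO and 0.81 ± 0.18 in IPC. Hgfac, the HGF activator, rose by 0.62 ± 0.20 in IPO. In IPO 4 of 12 stands beside 23.2% of all genes called, in IPC 2 of 12 beside 6.58% and in IPC+IPO 1 of 12 beside 3.62%. Under the spread covariate Hpn differed by 0.13 in IPO and 0.24 in IPC, Hgfac by 0.05 in IPO, and Spint2 by 0.27 in IPC+IPO, 0.21 in IPO and 0.49 in IPC; of these only Spint2 in IPC was called. The list's medians were 0.35, 0.32 and 0.37 against Sham, and 0.09, 0.05 and 0.17 with spread as a covariate. In IRI none of the 12 was called against Sham, and Spint2 differed there by 0.51 ± 0.18. With spread as a covariate 3 of the 12 were called in IRI, beside 5.89% of all genes. These were Hpn, Spint2 (at 0.39) and Plat (at -0.41).

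Among 10 genes of the EGF family, Errfi1, which codes for a feedback inhibitor of the EGF receptor, rose by 0.59 ± 0.20 (SE) in IPO and 0.70 ± 0.20 in IPC against Sham, and the ligand gene Btc, betacellulin, fell in IPO (-0.40 ± 0.13). None was called in IPC+IPO. Of 18 genes of the TGF-beta axis, 1 was called in IPC+IPO, 5 in IPO (2 of them lower) and 1 in IPC. Tgif1, a co-repressor of SMAD proteins, rose by 0.79 ± 0.23 in IPC+IPO, 0.97 ± 0.23 in IPO and 1.11 ± 0.23 in IPC. Inhba, the activin A subunit gene, rose in IPO by 0.81 ± 0.19, where Inhbb fell (-0.52 ± 0.14). On the IGF axis, 1 of 14 genes rose in IPC and 4 rose in IPO. The counts of the EGF, TGF-beta and IGF lists stand beside 3.62% of all genes called in IPC+IPO, 23.2% in IPO and 6.58% in IPC. Igfals, which holds IGF1 in its circulating complex, rose by 0.86 ± 0.23 in IPO and 0.87 ± 0.23 in IPC, and Insr, the insulin receptor gene, by 0.71 ± 0.22 in IPO. Under that covariate only Tgif1 in IPC, at 0.84, was called among the genes of this paragraph. Tgif1 then differed by 0.50 in IPC+IPO and 0.57 in IPO. Errfi1 was at 0.27 in IPO and 0.48 in IPC, Igfals at 0.43 and 0.58 in these groups. In IPO Btc stood at -0.13, Inhba at 0.57, Inhbb at -0.20 and Insr at 0.01. In IRI no gene of these lists was called against Sham without the covariate. Tgif1 differed there by 0.53 ± 0.23 and Errfi1 by 0.38 ± 0.20, or by 0.43 and 0.30 with it. Igfals averaged 9.56 in IRI and 9.09 in Sham, Insr 8.06 and 7.86, and Inhba 5.97 and 5.85.

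Downstream, Cdk4, the kinase partner of cyclin D1 and a MYC target, was the called gene of the MYC list of 15 in IPC+IPO and in IPC, where it rose by 0.96 ± 0.27 (SE) each, and it rose by 1.10 ± 0.27 in IPO. Npm1, a nucleolar protein gene, rose by 0.68 ± 0.19 in IPO, 1 of 5 of the list to do so. Of 24 cell cycle genes, 1 rose and 1 fell in IPC+IPO, 5 rose and 2 fell in IPO, and 2 rose in IPC. Pcna, the DNA polymerase clamp, rose by 1.01 ± 0.28 in IPC+IPO, 1.06 ± 0.28 in IPO and 0.87 ± 0.28 in IPC. Cdkn1a, the cell cycle inhibitor p21, rose by 0.78 ± 0.27 in IPO and 0.84 ± 0.27 in IPC, and Cdkn1b, a related inhibitor, fell in IPC+IPO (-0.36 ± 0.11) and in IPO (-0.34 ± 0.11). The median of this list was -0.01 in IPC+IPO, 0.00 in IPO and 0.01 in IPC, near that of all genes. Among 25 other growth factor genes 1 rose in IPC+IPO, 4 in IPO and 2 in IPC. Gdf15, a stress-induced hormone of the TGF-beta family, had the largest difference: 1.60 ± 0.42 in IPC+IPO, 1.47 ± 0.42 in IPO and 2.09 ± 0.42 in IPC. It was 4.25-fold higher in IPC than in Sham. The counts of the MYC, cell cycle and other growth factor lists stand beside 3.62% of all genes called in IPC+IPO, 23.2% in IPO and 6.58% in IPC. When spread was in the fit, Gdf15 differed by 1.52 in IPC+IPO, 1.36 in IPO and 2.01 in IPC, and it was called in IPC, with Spint2, Tgif1, Socs3, Nfkbia, Fgfr1 and Pdgfra. None of the other genes of this paragraph was called in that fit. Cdk4 was then at 0.41 in IPC+IPO, 0.35 in IPO and 0.44 in IPC, Pcna at 0.39, 0.21 and 0.28, and Npm1 at 0.08 in IPO. Cdkn1a was at 0.67 in IPO and 0.76 in IPC, and Cdkn1b at -0.32 in IPC+IPO and -0.28 in IPO. In IRI no gene of the MYC and cell cycle lists was called against Sham. There Cdk4 differed by 0.70 ± 0.27 and Cdkn1b by -0.26 ± 0.11, or by 0.51 and -0.24 with spread as a covariate. Pcna averaged 7.18 in IRI and 6.79 in Sham, Cdkn1a 6.39 and 6.28, Npm1 8.54 and 8.47, and Gdf15 6.33 and 5.70. Gdf15 in IPC differed from IRI by 1.46 ± 0.40 (limma, adjusted p = 0.154).

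**Figure D5:**
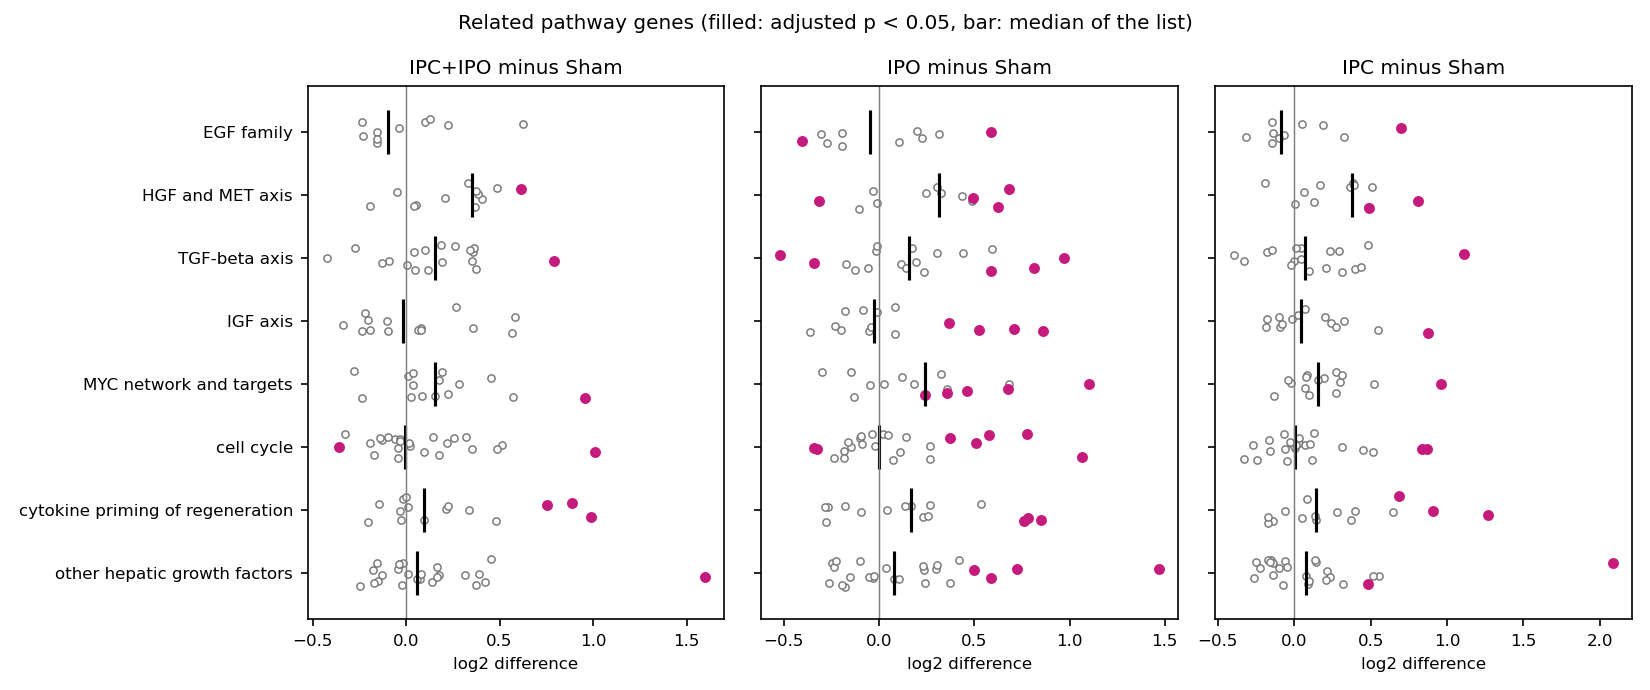
Log2 differences from Sham (horizontal axes) of the pathway genes around the 10 genes, by list, for IPC+IPO, IPO and IPC from left to right. Each point is a gene, filled points have an adjusted p under 0.05, and bars are list medians. In IPC 13 points are filled, all above 0, with Gdf15 farthest out at 2.09. The median of the HGF and MET axis lies at 0.35 in IPC+IPO, 0.32 in IPO and 0.37 in IPC. That of the MYC list lies at 0.15 in IPC+IPO, 0.24 in IPO and 0.15 in IPC. With spread as a covariate (not drawn) the MYC medians were -0.03, -0.02 and 0.04 in the same order. The other list medians drawn lie between -0.10 and 0.17.

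Markers of liver cell types were also compared with Sham, where 3.62% of all genes were called in IPC+IPO, 23.2% in IPO and 6.58% in IPC. The mean log2 level of 11 Kupffer cell and macrophage markers lay between 7.39 and 8.08 in IPC animals, against 6.90 and 8.07 in Sham animals. The list's median difference between IPC and Sham was 0.46, with 1 of 11 called (C1qb), and 0.11 with spread as a covariate. The level of 12 stellate and mesenchymal markers lay between 6.45 and 7.19 in IPC animals, against 6.40 and 7.19 in Sham animals, with 1 of 12 called (Acta2). Their median difference was 0.00, and -0.13 with spread as a covariate. None of the 12 hepatocyte, 12 neutrophil, 9 sinusoidal endothelial, 6 cholangiocyte or 8 erythroid and platelet markers was called in IPC against Sham. In IPO animals the mean level of the hepatocyte markers lay between 11.75 and 12.04, against 11.44 and 11.98 in Sham animals, and 2 of 12 rose (Ass1 and Tf) while Apoa1 fell, beside 23.2% of all genes called. In IPO against Sham, 3 of 12 stellate and mesenchymal markers and 1 of 11 Kupffer cell markers rose. Their list medians were -0.08 and 0.32, or -0.27 and -0.11 with spread as a covariate. Of 12 neutrophil markers 1 rose and 1 fell in IPO. In IPC+IPO against Sham 1 marker of all 7 lists was called, the Kupffer cell gene Vsig4, and the Kupffer cell list had a median of 0.24 (-0.01 with spread as a covariate), with levels between 6.93 and 8.23 in IPC+IPO animals. The part of these cell types in the differences of the 10 genes was not tested.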

How the data were processed

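Each probe set carries a log2 value from RMA, run by the authors in Affymetrix Expression Console, per the submitters' processing notes; versions, filters and batches are not given in the sources used here. Of 29215 probe sets, 15310 had 1 gene symbol in the platform annotation, 323 had several and 13582 had none. A gene was read from its probe set of highest mean, which gave 14506 genes, with no filter on dim genes. The labels name a separate rat for each array. The number of arrays limits the precision. limma 3.58.1 in R 4.3.3 (lmFit, eBayes) fitted the 5 groups together without covariates (43 residual degrees of freedom), two-sided, with Benjamini-Hochberg adjustment over all genes and a threshold of 0.05; intervals are 95% intervals. The 10 pairwise comparisons and the interaction were tested. The fit was tested on simulated data whose noise was drawn independently for each gene and array. Differences in array spread were thus not part of that test. Correlations used 100000 permutations. Python 3.11.15 and matplotlib 3.10.9 drew the figures. Promoters came from RefSeq (GRCr8), where 8 of the 10 genes were matched.

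The 10 members, the 8 pathway lists, the 7 marker lists and the settings were chosen with earlier results of these data known. The rule for other named genes took, per list and comparison, the called genes of smallest p, at most 4, and for each member the 3 genes of highest r; the text gives a selection. Fgfr1, Pdgfra, C1qb, Acta2, Ass1, Tf, Apoa1 and Vsig4 were named after their values were seen. Alternatives were a fit of the compared groups, eBayes with trend and robust, weights for arrays, the brighter genes alone (without the dimmest 33.3%), a test on every probe set, the most variable probe set of a gene, centring on array medians, quantile normalization once more, array spread in the model, exclusion of the 14 arrays of lowest spread, a threshold of 0.01, and omission of single arrays.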

Additional observations from a re-analysis of the deposited data

Results flagged for a closer look

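In 4 of the 50 sets of values given by the 10 genes in the 5 groups, the highest or lowest animal stood apart from the rest of its group by Dixon's ratio of the gap to the range, at its 95% critical value. Chance gives about 1 in 20. Myc in IPO animal 22 was 8.10, where the next highest IPO animal had 6.88. Met in IRI animal 7 was 6.08, where the next lowest IRI animal had 7.40, and this array had a spread of 1.54. Met in Sham animal 43 was 8.59, where the next highest Sham animal had 7.99. Hbegf in IPC animal 12 was 4.89, where the next lowest IPC animal had 5.53. No cause was tested.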

How the results depend on the processing

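No difference of the 10 genes that was called in the report changed its sign under any alternative, leave-one-out fits included. The calls of Myc and Igfbp1 in IPC against Sham were lost in 1 of 11 alternatives, without the 14 arrays of lowest spread. Where a count of called members moved, it did so as follows, and the cause was not tested. With array weights, 1 member was called in IRI against Sham (Ccnd1), 2 in IPC (Myc and Igfbp1) and 3 each in IPO and IPC+IPO against IRI, 7 in IPC and 8 each in IPO and IPC+IPO against Sham, and 2 in IPO against IPC (Myc and Igfbp1). In IPO against IRI, 0 were called with a trended and robust variance, over all probe sets, after renewed quantile normalization, with the spread covariate, without the 14 arrays and at an adjusted p under 0.01. Under the last 4 of these, 0 were called against Sham in IPO and also 0 in IPC+IPO. With only the groups compared, 6 were called in IPO and 0 in IPC+IPO against Sham. Without the 14 arrays, 0 were called in IPC against Sham and 1 in IPC+IPO against IRI (Hbegf). Without the dimmest 33.3% of genes, which leaves out Areg, 2 were called in IPC+IPO against Sham (Myc and Igfbp1).

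Without each array in turn, the count lay between 0 and 1 in IPC against IRI (1 without IRI animal 1), 0 and 4 in IPO against IRI (4 without IRI animal 1), 2 and 5 in IPC against Sham (2 without Sham animal 41 or 42, 5 without Sham animal 43), 1 and 5 in IPO against Sham (1 without Sham animal 41, 5 without 43), and 0 and 4 in IPC+IPO against Sham (0 without Sham animal 41, 42, 46 or 47, 4 without IPC+IPO animal 37 or 38). It was 0 throughout in the other comparisons. Of all 14506 genes, 35 were called in IRI against Sham, 4, 3307 and 0 in IPC, IPO and IPC+IPO against IRI, and 955, 3364 and 525 in these against Sham. These counts were 1894, 568, 6098, 4484, 7051, 9749 and 9007 with array weights, 854, 0, 2, 9, 275, 0 and 34 with the spread covariate, 382, 0, 1289, 113, 670, 1316 and 325 after renewed quantile normalization, 3, 3, 1077, 601, 7, 0 and 0 without the 14 arrays, 92, 9, 5033, 0, 1302, 5801 and 912 over all probe sets, 0, 0, 3073, 0, 785, 5455 and 12 with only the groups compared, 57, 6, 2446, 0, 1058, 2989 and 777 without the dimmest genes, and 2, 0, 41, 0, 142, 697 and 30 at an adjusted p under 0.01. Leaving out single arrays gave 1 to 324, 0 to 252, 395 to 5345, 0 to 1705, 293 to 2391, 1789 to 5572 and 49 to 2432. No paired analysis was possible because no animal number occurs in more than 1 group. Signal limits Areg, which lay below the array median on all arrays.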
